A study of Mus musculus with 2 samples.

Results

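The 9 genes described here encode the receptors through which the main growth factors of blood formation act: Epor, Kit, Flt3, Csf1r, Csf2ra, Csf2rb, Csf2rb2, Csf3r and Il3ra. They were chosen by name, and all 9 were found by gene identifier among 43346 annotated genes, 21474 of them protein-coding. The libraries are poly(A)-selected, paired-end RNA-seq of primary megakaryocyte-erythroid progenitors (MEP), the precursors known to form red cells as well as megakaryocytes, from which platelets come. Per the labels they came from adult female C57BL/6J mice 5 weeks old, described by CD16/32 (no sign given) and absent CD34, and no treatment or genetic change is named. There was 1 group of 2 replicates, so no conditions could be compared and no p-value is given. The labels list the replicates as separate biosamples with a shared donor identifier and do not say that they came from separate animals, so the spread between them may be partly technical.

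These receptors work in a pair of ways. Kit, Flt3 and Csf1r are receptor tyrosine kinases that pair up on binding stem cell factor, Flt3 ligand, or the macrophage factors CSF-1 and IL-34. The others are cytokine receptors without a kinase of their own, which signal through Janus kinases: Epor and Csf3r pair with themselves on binding erythropoietin or the granulocyte factor G-CSF, whereas the alpha chains Csf2ra (for GM-CSF) and Il3ra (for IL-3) bind their ligand together with a beta chain. Mice have a common beta chain, Csf2rb, shared with the IL-5 receptor, and a close relative, Csf2rb2, known to serve IL-3 alone. Epor is needed for red cell production, and Flt3 is known to fall as multipotent progenitors that express it commit to the erythroid and megakaryocytic lineages.

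The beta chain genes are near copies, which matters for how far their values can be told apart. They lie on chromosome 15 with 20030 bases between them and point away from each other, Csf2rb2 at 78282507 to 78305721 on the minus strand and Csf2rb at 78325752 to 78353847 on the plus strand (GRCm38). Their coding sequences of 2634 and 2688 bases were identical at 95.2% of bases aligned without gaps, with 125 substitutions and 66 gapped positions. Lengths and effective lengths in the deposited table differ by 139.9 bases in replicate 1, which corresponds to fragments of about 141 bases. A stretch of that length differed at 4 bases in the median, and 9.49% of such stretches without gaps held no difference. The stretch shown has the median number, with the differing bases in capitals; both were read from the GENCODE M21 transcripts and span exons 5 and 6, at chr15:78340518-78340736 (plus strand) for Csf2rb and chr15:78292573-78292791 (minus strand) for Csf2rb2.
Csf2rb: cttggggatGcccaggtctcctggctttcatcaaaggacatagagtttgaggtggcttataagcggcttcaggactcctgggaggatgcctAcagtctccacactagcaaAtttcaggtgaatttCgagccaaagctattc
Csf2rb2: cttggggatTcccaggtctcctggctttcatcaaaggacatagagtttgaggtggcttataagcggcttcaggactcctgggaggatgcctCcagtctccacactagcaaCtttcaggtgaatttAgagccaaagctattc

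All 9 receptor genes were detected, with a TPM of 1 or more in both libraries (TPM is transcript abundance corrected for length and scaled to a sum of 1000000 per library). That level was reached by 46.9% of protein-coding genes. Among detected protein-coding genes the median of the mean TPM was 16.4, and 8 of the 9 receptors lay above it, with Csf2rb2 below. The order of mean TPM ran from Csf2ra through Il3ra, Csf3r, Csf2rb, Epor, Kit, Flt3 and Csf1r to Csf2rb2.

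**Figure D1:**
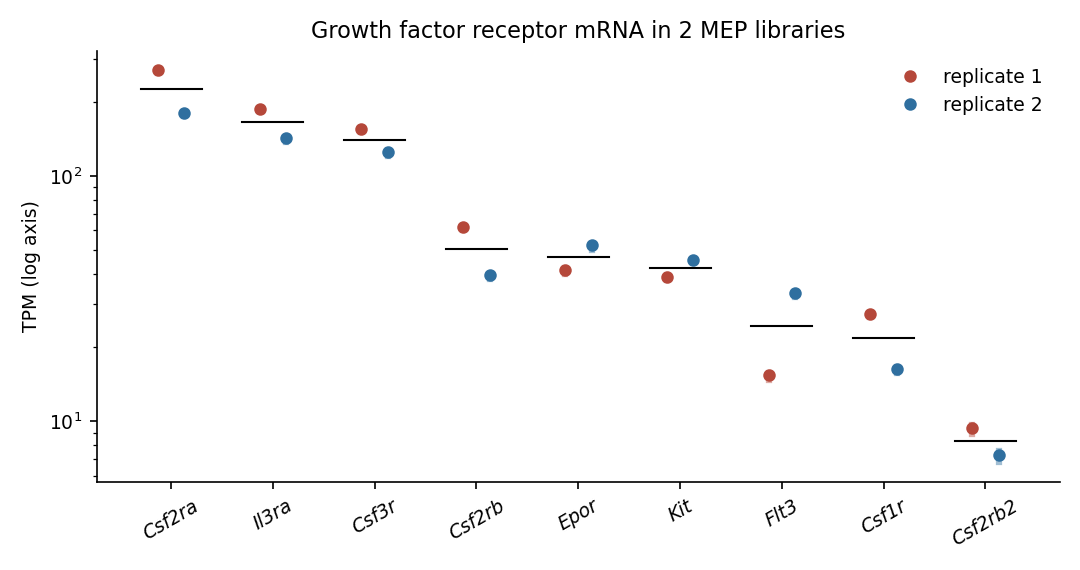
TPM of the 9 receptor genes (log axis) in each MEP library, ordered by their mean; points are the deposited TPM of replicates 1 and 2, pale bars the authors' interval within a library and black lines the mean of the 2 libraries. The alpha chain genes Csf2ra and Il3ra are highest in both libraries, Csf2rb2 is lowest at 9.4 and 7.31, and Flt3 and Csf1r change places.

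Per length, the alpha chains of the GM-CSF and IL-3 receptors were the most abundant. In CPM Csf2ra stayed highest, whereas Il3ra in replicate 1 was at 197, below Csf2rb at 238 and Csf3r at 217. In replicate 2 Il3ra was at 144 CPM, below Kit at 181, Csf3r at 160.4 and Csf2rb at 147. Csf2ra (ENSMUSG00000059326.6, chromosome 19, 61223957 to 61228429) was at a TPM of 269 in replicate 1 and 180.3 in replicate 2, a mean of 225 ± 62.9 (SD, n = 2). Il3ra (ENSMUSG00000068758.7, chromosome 14, 14346275 to 14356011) was at 188 and 142, a mean of 165 ± 32.5. Csf2ra was above Il3ra in both libraries with separate intervals, by 1.43-fold and 1.27-fold, so their order held while the size of the gap was small. The authors' interval covers quantification error within 1 library; for 1 of the 9 genes, Csf2ra, the replicate 1 TPM lay outside its own interval.

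The beta chains were far lower per length than the alpha chains. Csf2rb (ENSMUSG00000071713.4) was at 61.9 and 39.4 TPM, a mean of 50.6 ± 16 (SD, n = 2). Csf2rb2 (ENSMUSG00000071714.5) was at 9.4 and 7.31, a mean of 8.36 ± 1.48. Csf2rb exceeded Csf2rb2 in each library, with 86.8% of the beta chain TPM in replicate 1 and 84.3% in replicate 2, a mean log2 ratio of 2.57 ± 0.21. The authors' spread of the count within a library was 31.1 reads for each beta chain gene in replicate 1, which is 1.12% of the 2782 counts of Csf2rb2, and 23.2 reads or 1.35% in replicate 2. It was 0 for the other 7 receptors. The transcript model of Csf2rb2 used by the authors had 4612 bases, and the sequences compared are those of the later M21 models.

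Added up, Csf2ra and Il3ra reached 458 and 323 TPM in replicates 1 and 2, and the beta chains 71.3 and 46.7, a ratio of 6.42 and 6.91. The excess of alpha chains depended on length. The Il3ra model has 1394 bases and that of Csf2rb 4764, and the mean log2 ratio of Il3ra to Csf2rb was 1.73 ± 0.18 in TPM (SD, n = 2) and -0.16 in CPM (counts scaled to library size), which is not corrected for length. For Csf2ra and Csf2rb the mean log2 ratio was 2.16 ± 0.05 in TPM and 0.72 in CPM. The remaining alpha chain that uses Csf2rb, Il5ra of the eosinophil growth factor IL-5, had 0 counts in both libraries, which allows up to 0.0377 and 0.0459 CPM (3 counts of the library, counting error only).

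Csf3r, the G-CSF receptor of the neutrophil lineage, ranked 3 in gene TPM in both libraries, but most of that TPM belonged to a short non-coding transcript model. Csf3r (ENSMUSG00000028859.10, chromosome 4, 126024550 to 126044440) was at 155 and 125 TPM, a mean of 140.3 ± 21.4 (SD, n = 2). Csf3r-203, a processed transcript of 921 bases, held 60.3% of this in replicate 1 and 64.0% in replicate 2. By counts, it held 28.2% and 31.4%, and the protein-coding Csf3r-201 of 3160 bases held 68.1% and 64.5%. Protein-coding transcripts of Csf3r together were at 61.6 and 44.8 TPM, a mean of 53.2 ± 11.9, beside 50.6 ± 16 for Csf2rb.

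All 921 bases of Csf3r-203 lie within exons of Csf3r-201, and 94.7% of its 50-base words occur there too. It begins at 126038084, ends 37 bases after the stop codon of Csf3r-201 at 126043875, and leaves out exon 13 (91 bases, 126042660 to 126042750). The junction that sets it apart joins the exon ending at 126039896 to the exon starting at 126042904, and is shown beside the Csf3r-201 junction, both on the plus strand of chromosome 4 in GRCm38, with the downstream exon in capitals.
Csf3r-203: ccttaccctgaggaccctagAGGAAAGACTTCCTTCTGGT
Csf3r-201: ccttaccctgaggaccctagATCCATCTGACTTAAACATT
Whether the reads counted for Csf3r-203 crossed this junction was not tested, as read positions were not used here. The background was protein-coding genes detected in both libraries, with 2 or more transcripts and leading transcripts matched to GENCODE M21. For 22.6% of them a model not annotated as protein-coding was the most abundant in both libraries.

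**Figure D2:**
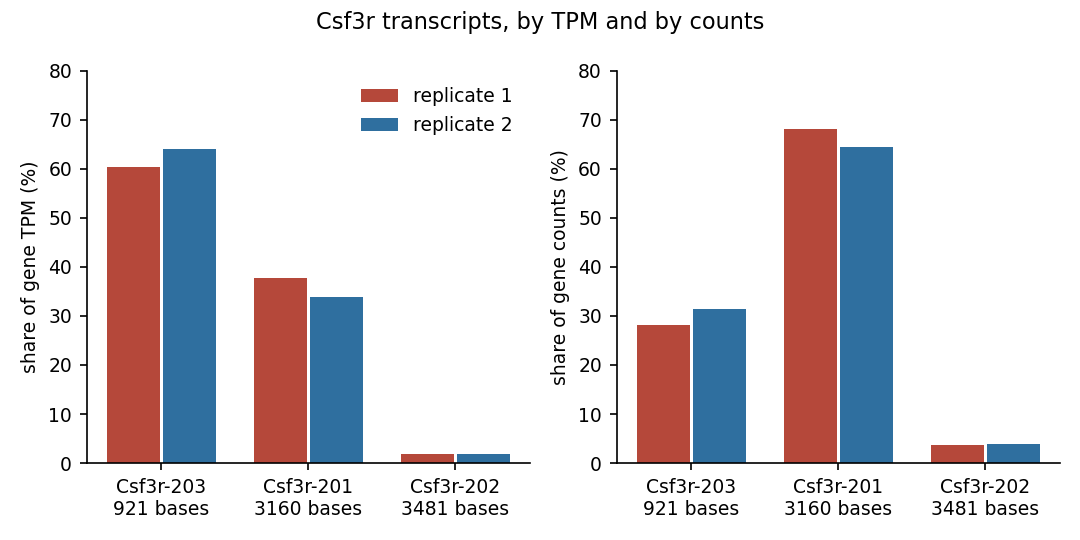
Share of each Csf3r transcript in the gene's TPM (left, percent) and in its expected counts (right, percent) for both MEP libraries, for transcripts with a mean share of 1% or more. The 921-base Csf3r-203 holds 60.3% and 64.0% of TPM but 28.2% and 31.4% of counts.

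Epor, the erythropoietin receptor, stood in the middle of the order. Epor (ENSMUSG00000006235.5, chromosome 9, 21958897 to 21963506) was at 41.5 TPM in replicate 1 and 52.2 in replicate 2, a mean of 46.9 ± 7.54 (SD, n = 2). Its expected counts were 4644 and 4651. The 250 bases before its RefSeq start on GRCm38 (chr9:21963577-21963826, minus strand) are shown because they hold a GATA motif, AGATAA on either strand, in capitals (here on the opposite strand); GATA1, which binds such letters, is a known regulator of erythroid genes.
Epor: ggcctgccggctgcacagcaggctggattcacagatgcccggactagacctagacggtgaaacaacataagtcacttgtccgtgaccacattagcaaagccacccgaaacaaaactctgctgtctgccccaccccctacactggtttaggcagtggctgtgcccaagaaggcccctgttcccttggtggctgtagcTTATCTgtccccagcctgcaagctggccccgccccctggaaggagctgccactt
AGATAA occurred in 9.97% of all 32536 such windows. Windows of 7 receptors were searched, and none of Csf1r or Csf2rb. Of the 7, Epor held AGATAA. Csf2rb2 held the other GATA form, TGATAA, which occurred in 7.79% of all windows and was searched after the windows were seen. The letters GAGGAA, a core recognized by the myeloid factor PU.1, occurred in the windows of Kit, Csf3r, Csf2ra and Csf2rb2 and in 23.4% of all windows, and none of the 3 motifs in those of Flt3 and Il3ra. The windows of Csf3r, Kit, Il3ra and Csf2ra overlap exons annotated in GENCODE M21, and most of the Il3ra window lies inside the gene as annotated there. The Csf2rb2 window (chr15:78305722-78305971, minus strand) is shown with its GAGGAA and TGATAA matches in capitals (each on the opposite strand).
Csf2rb2: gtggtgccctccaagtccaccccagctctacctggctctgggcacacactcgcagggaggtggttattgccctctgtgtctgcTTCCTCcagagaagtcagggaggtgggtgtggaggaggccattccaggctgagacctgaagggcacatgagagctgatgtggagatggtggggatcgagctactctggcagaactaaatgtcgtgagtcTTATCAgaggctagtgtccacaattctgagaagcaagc
A match is a description of the letters and does not show binding.

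Kit and Flt3, the receptors of early progenitors, were both present. Kit (ENSMUSG00000005672.8, chromosome 5, 75574916 to 75656722) was at 38.8 and 45.4 TPM, a mean of 42.1 ± 4.67 (SD, n = 2), the smallest spread of the 9 relative to its mean (11.1%). Epor exceeded Kit per length in both libraries with separate intervals, by 1.07-fold and 1.15-fold, whereas in CPM Kit, with a far longer mRNA, was above Epor (mean log2 ratio of Epor to Kit -1.38). Flt3 (ENSMUSG00000042817.13, chromosome 5, 147330741 to 147400489) was at 15.4 and 33.4 TPM, a mean of 24.4 ± 12.7, and its spread of 52.2% of the mean was the widest of the 9. Kit was above Flt3 by 2.52-fold in replicate 1 and 1.36-fold in replicate 2.

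Most Kit TPM was assigned to the form that carries 12 extra bases at the end of exon 9, known as the GNNK+ form, but the order of the forms was not settled in replicate 2. Kit-201, with these bases (chr5:75639147-75639158, plus strand, in capitals), held 93.9% and 90.8% of Kit TPM, and Kit-204, without them, 1.07% and 6.25%. The junction is shown with 24 bases on either side.
Kit-201: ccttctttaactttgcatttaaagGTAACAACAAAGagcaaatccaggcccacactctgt
Kit-204: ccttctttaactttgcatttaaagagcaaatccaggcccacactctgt
Kit-204 was at 0.41 TPM with an interval of 0.196 to 7.57 in replicate 1, and at 2.84 with an interval of 0.75 to 24.9 in replicate 2, so the intervals of the libraries overlapped. Kit-201 had an interval of 28.8 to 36.6 in replicate 1, above that of Kit-204, and of 18.2 to 43.0 in replicate 2, which overlapped it. The models also differ in their first exon, which starts 39 bases earlier in Kit-204, and 98.4% of the 50-base words of Kit-204 occur in Kit-201. The other 19 of 21 exons are identical.

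Csf1r, the receptor of the macrophage lineage, was close to Flt3 in mean level but went the other way between libraries. Csf1r (ENSMUSG00000024621.11, chromosome 18, 61100598 to 61132149) was at 27.3 TPM in replicate 1 and 16.4 in replicate 2, a mean of 21.9 ± 7.71 (SD, n = 2). It overlaps the protein-coding gene Hmgxb3 on the opposite strand by 873 bases; Hmgxb3 was at 15.4 and 15.6 TPM, and strand handling in the counting is not stated in the sources used. Csf1r was above Flt3 in replicate 1 with a log2 ratio of Flt3 to Csf1r of -0.83, and below it in replicate 2 with 1.02.

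Of the 8 neighbouring steps in the order, 6 held in both libraries with separate intervals. The order was set from the mean of these same 2 libraries, so this agreement is partly built in. A step needed no minimum size, as for Epor over Kit at 1.07-fold and 1.15-fold, and no share over other genes was computed. The exceptions were Csf2rb and Epor (log2 ratio 0.58 and -0.41) and Flt3 and Csf1r, whose order reversed between libraries. For Csf2rb and Epor as for Flt3 and Csf1r, the mean difference was smaller than its SD between libraries. Of 13 pairs compared, 6 were called, meaning a mean ratio over 2-fold, 1 sign in both libraries and intervals that did not touch in either; of all pairs of detected protein-coding genes, 75.6% were called. Those 6 were Csf2rb over Csf2rb2, Csf2ra over Csf2rb, Il3ra over Csf2rb, Il3ra over Csf2rb2 (mean log2 ratio 4.30 ± 0.03, SD, n = 2), and Csf3r over Csf1r and over Epor. In CPM, without the interval condition, 7 pairs were called: Csf2ra over Csf2rb (0.72) and Il3ra over Csf2rb (-0.16) lost the call, and Kit over Flt3 (1.36), Kit over Csf1r (1.09) and Kit over Epor (-1.38 for Epor to Kit) gained it. With protein-coding transcripts alone, chosen after seeing the data and without the interval condition, Csf3r over Epor no longer passed: the log2 ratio of Epor to Csf3r was -0.57 and 0.22, in place of -1.90 and -1.26. Csf2ra over Csf3r then did pass, with -2.13 and -2.01 for Csf3r to Csf2ra in place of -0.79 and -0.53.

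**Figure D3:**
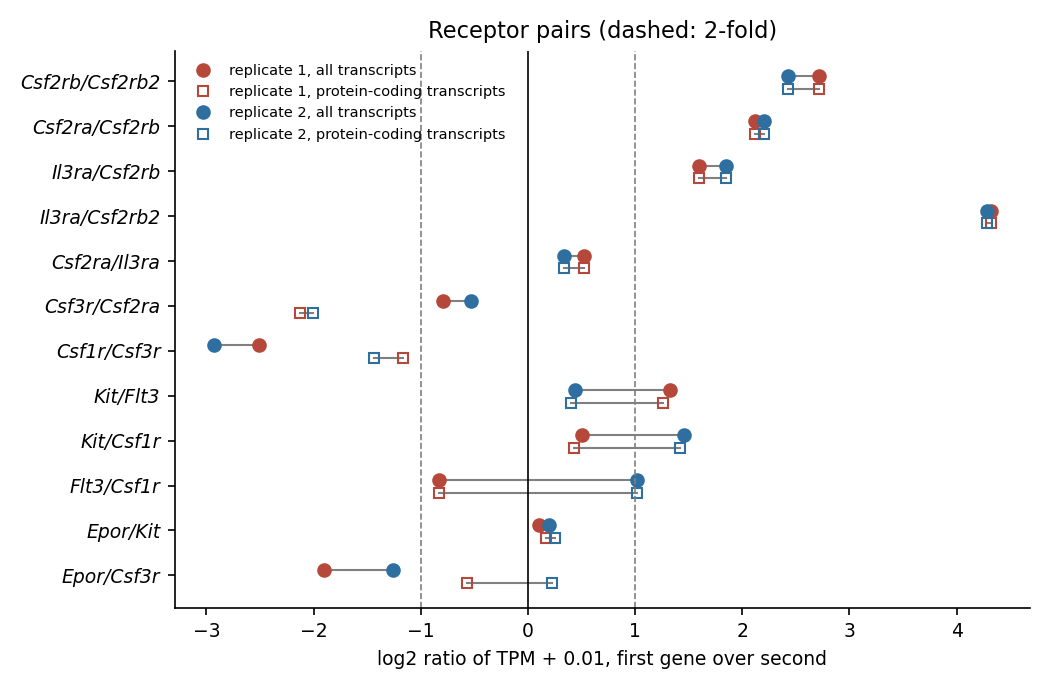
Log2 ratio of TPM + 0.01 for the receptor pairs reported, first gene over second; filled circles use all transcripts, open squares protein-coding transcripts alone, lines join replicates 1 and 2, and dashed lines mark 2-fold. Ratios with Csf3r shift between circles and squares, as for Epor to Csf3r from -1.90 and -1.26 to -0.57 and 0.22, and Flt3 to Csf1r lies on either side of 0.

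The GM-CSF, IL-3, G-CSF and CSF-1 receptor genes were higher in replicate 1, and Flt3, Epor and Kit in replicate 2. On TMM-scaled CPM (a scaling that evens out library composition), 6 of 9 were higher in replicate 1: Csf1r, Csf2rb, Csf2ra, Il3ra, Csf3r and Csf2rb2, with log2 differences of 0.83, 0.75, 0.68, 0.51, 0.49 and 0.46. Flt3, Epor and Kit were higher in replicate 2, with log2 differences of -1.02, -0.23 and -0.16. Of the 7652 protein-coding genes whose mean TPM reached 5, 53.6% were higher in replicate 1 and 46.4% in replicate 2, and the median difference was 0.02 over those genes beside 0.49 over the 9 receptors. With 1 library against 1, these differences have no replicate check.

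Flt3 was the only receptor more than 2-fold apart with separate intervals, 46.0 against 93.2 CPM or 2.02-fold, just past the limit. Of the 7652 genes, 1.37% were that far apart, 1.03% with the higher value in replicate 1 and 0.34% with it in replicate 2. At 1.5-fold, 4 receptors were apart (Flt3, Csf1r, Csf2rb and Csf2ra), beside 8.27% of the 7652 genes. Epor was 1.17-fold and Kit 1.11-fold higher in replicate 2.

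**Figure D4:**
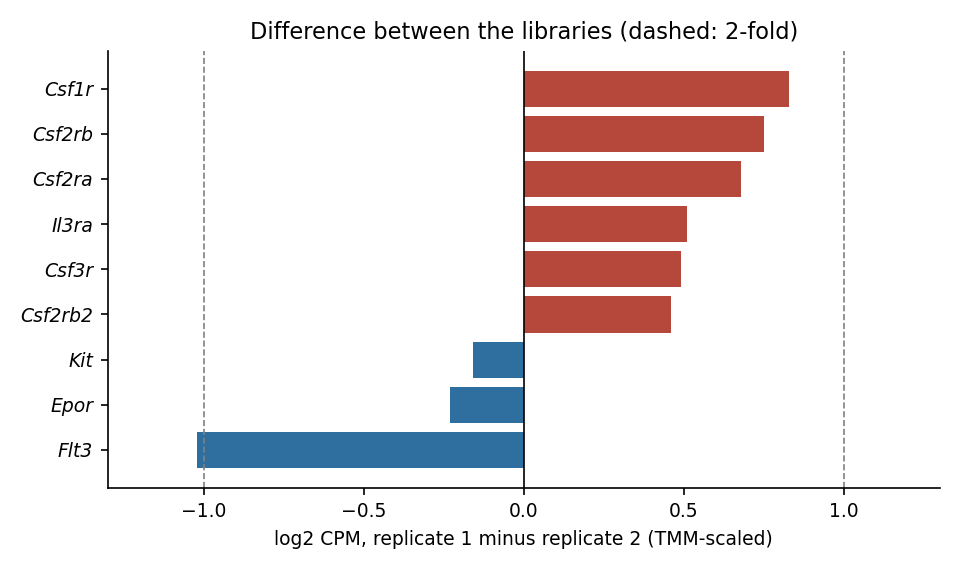
Log2 difference in TMM-scaled CPM, replicate 1 minus replicate 2, for the 9 receptors, with dashed lines at 2-fold. Csf1r, Csf2rb, Csf2ra, Il3ra, Csf3r and Csf2rb2 lie to the right (0.46 to 0.83), and Kit, Epor and Flt3 to the left (-0.16 to -1.02).

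Several cell type marker lists also differed between the libraries, whereas basophil and mast cell markers were close. All 10 granulocyte and monocyte markers, led by Mpo and Prtn3, were detected and higher in replicate 1, with a summed TPM of 30922 and 17041. The 10 erythroid markers, all detected, summed to 671 and 827. Of all protein-coding genes, 46.9% were detected. Mpo, Prtn3 and Elane (10136, 10600 and 8624 TPM in replicate 1) held most of the granulocyte and monocyte sum, and the medians of the lists were closer, 91.5 and 75.8 for granulocyte and monocyte against 39.0 and 57.9 for erythroid markers. The 6 megakaryocyte markers and the 4 stem and multipotent markers whose mean TPM reached 5 were all higher in replicate 2. Of the 7652 protein-coding genes at that level, 46.4% were higher in replicate 2 and 53.6% in replicate 1. Summed TPM was 201.3 and 327.2 for the megakaryocyte list, with Itga2b alone at 115 and 211, and 192.8 and 296.7 for the stem list. None of the megakaryocyte, stem, erythroid or basophil and mast cell markers at that level was over 2-fold apart with separate intervals. That far apart were 4 of 10 granulocyte and monocyte, 2 of 3 B cell and 1 of 1 T and NK cell markers. The share of the 7652 genes was 1.37%. Of 8 erythroid markers at that level, 6 were higher in replicate 2 on TMM-scaled CPM, the measure used for these directions. The others, Klf1 and Tfrc, had log2 differences of 0.1 and 0.29 there. In TPM both were higher in replicate 2, Klf1 at 123 and 124 and Tfrc at 3.03 and 9.48. B cell markers, all 5 detected, summed to 73.6 and 27.0. T and NK cell markers summed to 35.1 and 18.0 with 1 of 5 detected, Nkg7 at 34.3 and 17.3. Basophil and mast cell markers summed to 70.5 and 74.2 with 3 of 5 detected, and Prss34 alone was at 56.9 and 60.4. The T and NK cell sum and the basophil and mast cell sum were thus each mostly 1 gene. Of all these markers only Gp6 of platelets had 0 counts in both libraries. The part of these markers' cells in the receptor differences was not tested, and in bulk RNA fewer cells of a type and less RNA per cell cannot be told apart.

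Ligand mRNA was mostly below detection. Of 9 ligand genes found, 1 was detected, Csf1 at 9.2 and 9.67 TPM, while Epo, Thpo, Il34, Csf2, Il3 and Il5 had 0 counts; Kitl had 0 and 6 counts and Csf3 38 and 5. Of 18 related receptors, 9 were detected, led by Crlf2 (the receptor for thymic stromal lymphopoietin) at 185 ± 10.9 and Il2rg (the common gamma chain) at 40.5 ± 6.93 (SD, n = 2). Il5ra, Osmr, Prlr and Pdgfra were lowest, with 5 counts or fewer in either library. All 16 genes of receptor-proximal signalling and all 13 negative regulators were detected. In TPM the signalling list was led by Jak1 at 369 ± 66.8, the adaptor gene Shc1 at 138 ± 20.6 and the kinase gene Lyn at 134 ± 19.5. Its lowest members in TPM were Sos1 at 2.42 ± 0.368 and Pik3cg at 3.93 ± 0.474. In counts, which are not corrected for length, Pik3cd led it with 26451 and 17287, beside 11974 and 9297 for Jak1. Pik3cd was named after its values were seen. In replicate 1 Jak1 had 11974 counts at 416 TPM, against 30462 counts at 269 TPM for Csf2ra, whose model has 1849 bases. The Jak1 TPM was thus computed over a shorter length than that, and which Jak1 transcript models held it was not examined. Among negative regulators, Sh2b3, which encodes the adaptor Lnk that restrains Kit and Epor, was highest in TPM at 172 ± 14.6. Inpp5d (SHIP1) at 88.8 ± 5.90 and Dok1 at 85.6 ± 1.28 followed, with Spred1 at 2.44 ± 0.332 and Cblb at 3.56 ± 0.672 lowest. In counts Inpp5d was above Sh2b3, with 26058 against 20451 in replicate 1 and 22427 against 15236 in replicate 2. The sheddases Adam10 and Adam17, which release the outer parts of several membrane proteins, were at 55.6 ± 5.90 and 14.7 ± 4.04 TPM. Their counts were closer, 4003 and 3331 in replicate 1 and 3384 and 3139 in replicate 2. Across these lists 41 of 58 genes were detected, beside 46.9% of all protein-coding genes. Of the 34 whose mean TPM reached 5, 1 was over 2-fold apart between the libraries with separate intervals. Among the 7652 protein-coding genes at that level, 1.37% were. The 1 gene was Il21r, at 19.4 and 9.41 TPM, which was singled out after its values were seen.

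For each of the 9 receptors 1 transcript led in both libraries, as it did for 87.6% of detected protein-coding genes with 2 or more transcripts. For Epor, Csf2ra, Csf2rb, Csf2rb2 and Il3ra the table holds 1 transcript, so this says something about 4 genes alone: Kit, Csf3r, Flt3 (100% and 99.7% of TPM in the leading transcript) and Csf1r (99.5% and 99.8%).

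The protein-coding genes nearest to each receptor in log2(TPM + 1) over the 2 libraries were Pno1 for Epor, Topbp1 for Kit, Kcnip3 for Csf1r, Ctsz for Csf2ra, Kdelr2 for Csf2rb, Rassf3 for Csf2rb2, Mfsd13a for Csf3r and Surf4 for Il3ra. With 2 libraries this likeness is of level and of 1 difference only. Within a distance of 0.1, Kit had 51 such neighbours, Epor 35, Csf2rb2 20 and Csf3r 17. Few lay that near to Csf1r (5), Il3ra (4), Csf2rb (2) and Csf2ra (1). Flt3 had 0, and its nearest gene, Zfp326, lay just outside at 0.107 with a TPM of 16.6 and 34.4.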

How the data were processed

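Gene and transcript tables of 2 MEP libraries were used. The assembly is mm10 per the labels, and the annotation GENCODE M4 per the deposited file lists. No aligner, quantification program or strand setting is given in the sources used here. The authors deposited expected counts, TPM and FPKM, percent of gene TPM per transcript, and a posterior mean TPM, treated here as a signal, whose interval is of a level not stated. Counts on annotated genes summed to 79539457 and 65305321 in replicates 1 and 2. Of 43346 genes, 42462 matched GENCODE M21 (GRCm38) by identifier; the ligand gene Flt3l was not matched.

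Expected counts were rounded, filtered with filterByExpr and scaled by TMM (edgeR 4.0.16, R 4.3.3, prior count 2), with DESeq2 1.42.0 size factors as an alternative; the steps were tested on simulated data. Ratios used a pseudocount of 0.01 TPM. Sequences came from GENCODE M21 transcripts and RefSeq promoter windows (GRCm38.p6) and were aligned with Biopython 1.88. The receptors, pairs, gene lists and marker lists were chosen with earlier results of these data known. Named genes were the receptors, the 3 highest and 2 lowest of each pathway list, each receptor's nearest gene, and of each marker list the 2 highest and those at 0 counts; not all are printed, and 1 gene of these lists and its pair are not reported here.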

Additional observations from a re-analysis of the deposited data

How the results depend on the processing

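No receptor lost detection and none changed direction between libraries under the alternatives run. The number of receptors apart between libraries was 4 at 1.5-fold in place of 2-fold, and 1 under each of the other 5 settings tried (DESeq2 size factors, log2 TPM, another prior count, no count filter, no interval condition). Without length correction (CPM), the log2 ratio of Il3ra to Csf2rb went from 1.73 to -0.16 and that of Epor to Kit from 0.15 to -1.38; length correction is the only step that differs there. Leaving out replicate 1 or 2 gave 8 and 7 pairs called in place of 6, and 8 neighbouring steps apart in place of 6, since a single library has no order to contradict. Kit over Flt3 was called from replicate 1 alone (1.33), and Kit over Csf1r (1.46) and Flt3 over Csf1r (1.02) from replicate 2 alone. The differences between libraries and the shared main transcripts cannot be recomputed with 1 library. Protein-coding transcripts alone were added after seeing the data and moved Csf3r from 140.3 to 53.2 TPM. No paired analysis was possible because there is only 1 group. In CPM the mean rank over the libraries went from 2 to 4.5 for Il3ra, 4.5 to 7 for Epor, 5.5 to 3.5 for Kit and 5 to 3 for Csf2rb. The receptors had 1728 counts or more, and no reduced depth was run; the Kit-204 intervals (0.196 to 7.57 and 0.75 to 24.9 TPM) were wide, and the cause was not tested.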
